A study of Penaeus monodon with 38 samples.

Results

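The set described here consists of 81 microarray probes, designed on 42 SMART clones and contigs, whose signal in the ovary of wild black tiger shrimp (Penaeus monodon) stood above that in eyestalk and cephalothorax. They were chosen among the 1225 probes, on 530 targets, whose name contains SMART or begins with Contig. The array holds 2240 probes on 921 targets in all. A target is the clone or contig sequence on which a probe was designed, and the numbers after its name give the probe's first and last base in that target. The rule added 50 to each probe's mean foreground intensity, took log2, quantile-normalised the 30 wild arrays together and averaged by tissue. A probe was kept when its wild ovary mean lay at least 1 log2 unit above both other tissue means. The members were thus chosen by their wild tissue means, which are given below as a description without a test. None of the 81 members has a gene name in the files (0 of 81), so clones and contigs are called by their design names and no function is given to them.

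Unilateral eyestalk ablation, the removal of 1 eyestalk, is used in hatcheries to bring on ovarian maturation, because peptides from a neurosecretory organ in the eyestalk hold reproduction back. In the maturing shrimp ovary, previtellogenic oocytes build up maternal RNA and the proteins of the cortical rods, yolk is then taken up during vitellogenesis, and the rods at the oocyte's edge later supply the jelly layer around the spawned egg. The ovary of penaeid shrimp runs from the cephalothorax into the abdomen. Vitellogenin, the yolk precursor, is made both in the ovary and in the hepatopancreas, which lies in the cephalothorax.

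The series compared ovarian maturation between captive-reared and wild-caught adult females, with tissue from unablated animals (preablation) and from animals after unilateral ablation. Captive-reared animals, grown out in ponds, gave 4 arrays each of ovary and eyestalk, 1 for each of a preablation, a postablation previtellogenic, a vitellogenic and an elongated cortical rod stage, and each array carried a pool of 3 animals. Wild-caught animals gave 12 ovary and 12 eyestalk arrays, with 2 arrays a stage from pools of 4 and 5 animals, and 6 cephalothorax arrays, with 1 array a stage. Wild stages were preablation, 2 h and 24 h after ablation, which make up the previtellogenic phase, and the vitellogenic, round cortical rod and elongated cortical rod stages, which make up the vitellogenic phase. The pools are stated for ovary and not separately for the other tissues. The labels do not say which replicate number is which pool, and the spread that enters a p-value is that of pools and stages, since single animals were not measured.

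Levels below are log2 normalised intensities on 1 scale over all 38 arrays, and a level of 1 probe is not set against that of another. The non-specific level of an array is the 90th percentile of its 24 probes for vertebrate genes. Where no array of the dimmer group exceeded that level, the difference is given as "at least N-fold". Array medians of the raw intensity ran from 72.3 to 384. The tissue labels were checked on 12 probes for thrombospondin and the ovarian peritrophins, proteins of the cortical rods. Their mean was 12.5 to 13.2 on captive ovary arrays and 12.7 to 13.3 on wild ovary arrays, against 7.10 to 7.20 on captive eyestalk and 6.99 to 7.97 on wild eyestalk arrays. Cephalothorax lay between, at 7.95 to 11.3. A list of 13 muscle probes ran the other way, at 8.41 to 8.64 in captive ovary and 11.8 to 12.6 in cephalothorax. It was at 10.2 to 11.4 in captive eyestalk, and at 8.91 to 12.2 in wild eyestalk, overlapping wild ovary at 8.54 to 8.98. The mean of 107 eyestalk and neural probes was 7.55 to 8.13 on captive and 7.46 to 8.21 on wild eyestalk arrays. On ovary arrays it was 6.94 to 7.21 in captive and 6.89 to 7.12 in wild animals, and on cephalothorax arrays 6.87 to 6.99. Each slide held 1 tissue of 1 origin, so neither tissue nor origin can be told apart from slide.

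The members came from few of the design's name groups. Contigs gave 39 members among 209 probes, and 18 of 87 contigs were represented. The plate names D, A, plateA and Plate-A gave 14 of 106, 9 of 87, 9 of 101 and 8 of 61 probes. Plate-B and plateB gave 1 member each, and the name groups B, C, E, F, Plate-C and plateC gave 0 of 70, 80, 89, 89, 62 and 99 probes. The meaning of the plate letters is not stated in the labels or file headers. The median GC content was 45.7% in the members and 45.7% in the other SMART and contig probes.

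Of the 42 targets, 29 had all of their probes in the set, among them 2 with a single probe, and 10, these 2 included, had 1 member probe. The 18 other probes on these targets were not members, and 16 of them still had a wild ovary mean above both other tissues. None of the 18 was below the non-specific level on every wild ovary array. The exceptions were D-D10-5-SMART 5-39, where the smaller of the 2 gaps was -1.14 log2 units, and A-E9-5-SMART 369-403, at -0.143.

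Some members share a run of bases, on the same or the opposite strand, with probes of other targets (partner probes), and examples are shown. A run of at least 16 bases was shared with a probe of another target by 15 of the 81 members (18.5%), on 12 targets, and by 26 of the other 1144 SMART and contig probes (2.27%). For 14 members (17.3%) and 6 of the others (0.524%) the partner was a clone of the ovarian cDNA library, and for D-F7-5-SMART 104-137 it was ovarian peritrophin 1. Capitals mark the shared run in each pair, which comes from the deposited array design and is written 5′ to 3′.
D-F7-5-SMART 104-137: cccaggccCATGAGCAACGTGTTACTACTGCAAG
Ovarian peritrophin 1 830-863: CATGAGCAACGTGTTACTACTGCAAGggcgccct
Contig[0219] 661-695: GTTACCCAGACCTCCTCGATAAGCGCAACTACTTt
OV-N-S01-0859 243-277: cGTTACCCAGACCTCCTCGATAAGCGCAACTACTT
Contig[0218] 792-825: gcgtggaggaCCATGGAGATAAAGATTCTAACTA
OV-N-S01-0389 766-800: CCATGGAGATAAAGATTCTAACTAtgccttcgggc
OV-N-S01-0867 150-184: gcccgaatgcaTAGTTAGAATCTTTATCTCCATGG

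The first pair shares 26 bases, the second 34 and the third 24, and the last line carries the same 24 bases on the opposite strand. In all, the members had 20 such partner probes. The 16 on the same strand all had a wild ovary mean at least 1 log2 unit above both other tissues, and none of the 4 on the opposite strand did. Neither number counts separate sequences. Several of the 16 match the 1 member Contig[0258] 504-539 with nearly the same bases. Of the 4, OV-N-S01-1095 54-88 and OV-N-S01-0741 58-92 both match Contig[0238] 1241-1276 and carry overlapping bases. This is a description, since the same wild arrays and rule chose the members that carry the shared bases. Of the 345 probes of the ovarian cDNA library, 169 had such a gap. OV-N-S01-0389 766-800, on the strand of Contig[0218], had a gap of 3.30, whereas OV-N-S01-0867 150-184, its reverse complement over the shared run, had a gap of -0.07 and lay above the non-specific level on 0 of 12 wild ovary arrays. These 2 probes carry the shared 24 bases on opposite strands, and their values differ. The remaining partners on the opposite strand did give signal in wild ovary. OV-N-S01-1095 and OV-N-S01-0741 lay above the non-specific level on 12 of 12 wild ovary arrays, with gaps of -1.49 and -1.91. OV-N-S01-0561 lay above it on 6 of 12, with a gap of 0.03. The shared run alone does not name the clone: D-F7-5-SMART has no gene name in the files, and 26 bases are what it shares with ovarian peritrophin 1, a protein of the cortical rods.

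Members of 1 target can also share sequence, so that they are not independent measurements. The probes of Contig[0334] with the largest gaps of the set carry a 30-base repeat, in capitals, that recurs 144 bases further along the contig, and its probe 521-555 does not.
Contig[0334] 40-73: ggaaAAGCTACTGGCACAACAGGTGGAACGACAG
Contig[0334] 188-221: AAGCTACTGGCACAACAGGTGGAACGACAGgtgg
Contig[0334] 521-555: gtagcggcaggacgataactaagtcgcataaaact

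In 4 pairs of members, neighbouring probes overlap along their target. The 3 probes of Contig[0338] do so by 4 and by 17 bases, in capitals.
Contig[0338] 81-115: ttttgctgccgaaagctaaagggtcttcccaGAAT
Contig[0338] 112-145: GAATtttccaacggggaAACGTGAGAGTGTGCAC
Contig[0338] 129-163: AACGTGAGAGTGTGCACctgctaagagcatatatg

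No 2 members of different targets shared a run of 16 bases (0 pairs).

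The smaller of a member's gaps to eyestalk and cephalothorax, on the scale of the rule, ran up to 5.36. The largest belonged to Contig[0334] 188-221 at 5.36 and 40-73 at 5.35, followed by Contig[0243] 1009-1043 at 4.26, Contig[0286] 545-579 at 4.20 and Contig[0219] 598-632 at 4.15. Wild ovary brightness put Contig[0243] 1009-1043, plateA-H1-5SMART-primer 497-531, Contig[0218] 412-446, Contig[0334] 188-221 and Contig[0219] 661-695 near the scanner's ceiling of 65535, and no order is read between probes. In all, 10 members exceeded 60000 on at least 1 ovary array, where further increases could not be read.

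Just inside the threshold lay D-B1-5-SMART 305-339 with a gap of 1.02, plateA-E12-5SMART-primer 643-678 with 1.05 and Contig[0241] 465-499 with 1.06. Just outside lay Plate-A-E2-5-SMART 227-260 at 0.983, D-C3-5-SMART 9-43 at 0.978 and D-A11-5-SMART 89-123 at 0.943. The edge of the set is thus gradual. Among the 7 targets with at least 3 member probes, the gap ran from 2.94 to 4.26 in Contig[0243], 3.41 to 3.93 in Contig[0268], 1.27 to 2.26 in Contig[0309] and 2.71 to 5.36 in Contig[0334]. It ran from 2.95 to 3.58 in Contig[0338], 2.12 to 2.80 in D-F10-5-SMART and 1.21 to 1.53 in Plate-A-G11-5-SMART. The Contig[0334] probe outside the repeat, 521-555, supplied the 2.71.

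Array by array, the median member level was 10.83 to 11.31 in captive ovary and 10.87 to 11.31 in wild ovary. It was 7.16 to 7.23 in captive eyestalk and 7.05 to 7.41 in wild eyestalk, close to the median over all probes of 7.29. Between 76 and 81 members exceeded the non-specific level on each ovary array of either origin, against 9 to 16 on captive eyestalk arrays and 9 to 29 on wild eyestalk arrays. Over all probes, 30.7% to 46.3% exceeded it on captive ovary and 34.2% to 48.8% on wild ovary arrays. The share was 22.1% to 30.1% on captive eyestalk and 24.3% to 39.0% on wild eyestalk arrays. For 45 of the 81 members, no eyestalk array of either origin exceeded the level. Cephalothorax arrays did not form 1 level: 37 to 55 members exceeded it on the vitellogenic arrays and 60 to 69 on the previtellogenic arrays, beside 43.3% to 50.4% of all probes. The wild counts come from the arrays that chose the members.

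**Figure D1:**
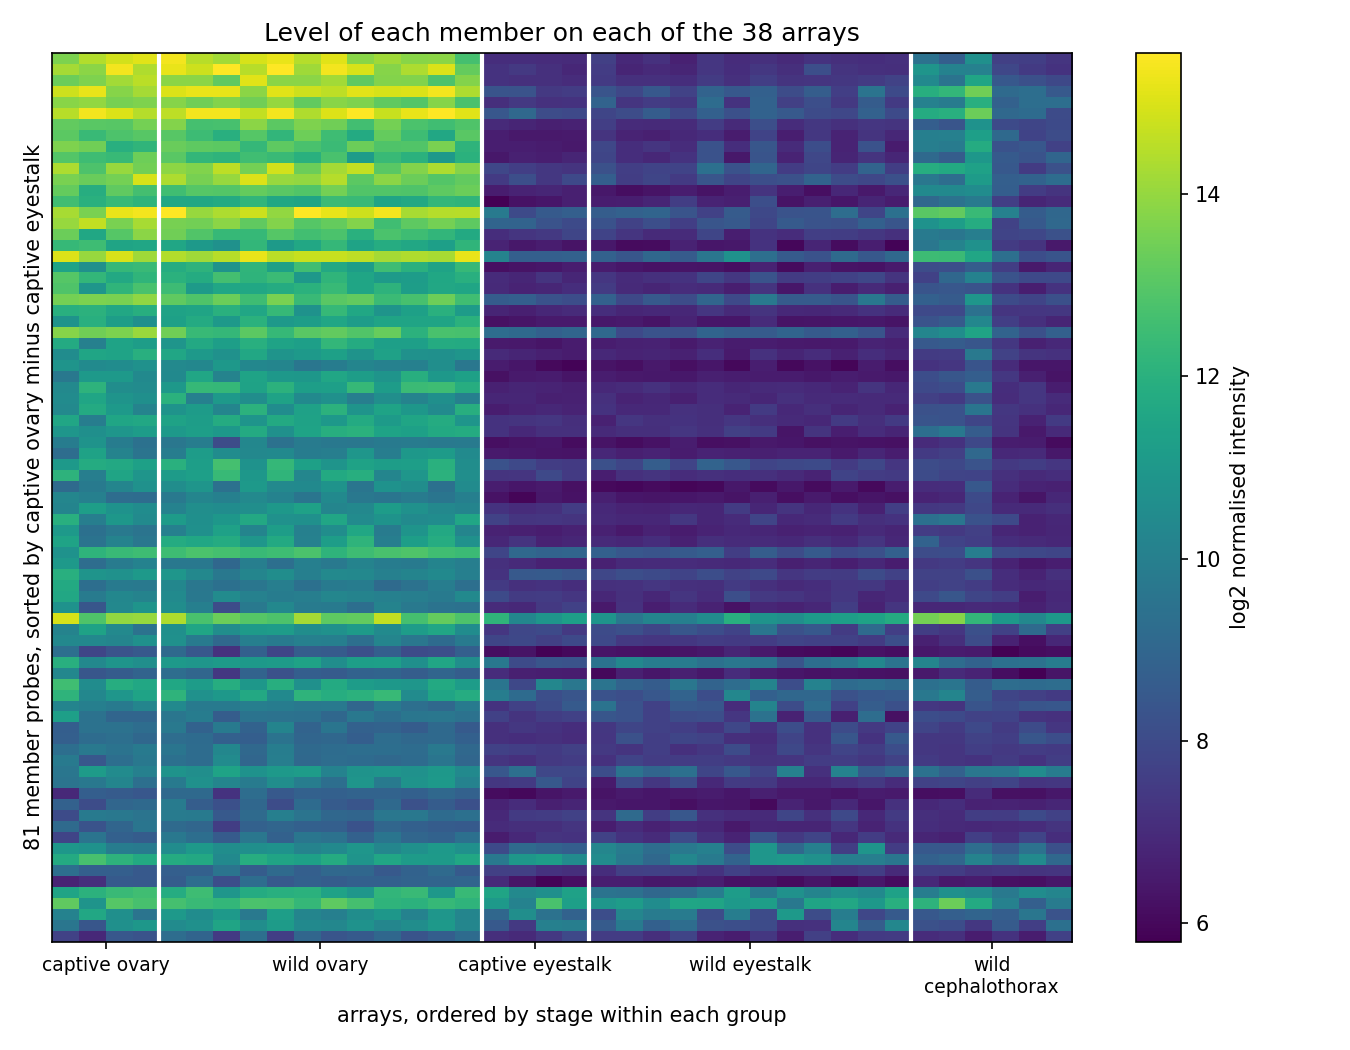
Heat map of the log2 normalised intensity (colour bar) of the 81 members (1 row each, sorted by captive ovary minus captive eyestalk) on each of the 38 arrays (columns, by tissue and origin and then by stage). Ovary arrays of both origins have medians between 10.83 and 11.31 and eyestalk arrays between 7.05 and 7.41, and the first 3 cephalothorax columns, the previtellogenic ones, are brighter than the last 3.

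The captive arrays were not used to choose the set, so they test the tissue difference again in other animals. All 81 members had a higher mean in captive ovary than in captive eyestalk, and 77, on 40 targets, passed limma's test at an adjusted p under 0.05. None was lower. Over all 2240 probes, 15.2% were called higher and 21.9% lower. The median log2 difference of the members was 3.49, beside -0.03 over all probes, and the range was 0.49 to 7.46. Captive ovary and eyestalk arrays did not overlap for 75 members, all of them higher in ovary, beside 17.2% of all probes. For 57 members the eyestalk arrays were all within the non-specific level, so that only a bound can be given, between 1.02-fold and 54.9-fold.

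Values of captive arrays are in the order preablation, postablation previtellogenic, vitellogenic and elongated rod. Contig[0334] 40-73 had 13.61, 14.40, 14.88 and 15.12 on the captive ovary arrays, against 7.06, 7.08, 7.04 and 7.00 on the captive eyestalk arrays. Every ovary array was above every eyestalk array, and none of the eyestalk arrays exceeded the non-specific level. The difference was 7.46 ± 0.31 (SE), at least 54.8-fold. Contig[0334] 188-221, with the shared repeat, differed by 7.28 ± 0.32, at least 52.9-fold.

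Contig[0219] 598-632 had 13.35, 13.64, 14.18 and 14.53 in captive ovary, against 7.23, 7.16, 7.13 and 7.05 in captive eyestalk. It differed by 6.78 ± 0.26, at least 36.7-fold. The clone plateA-H1-5SMART-primer, by its probe 497-531, had 14.79, 15.22, 13.78 and 14.23 in captive ovary, against 8.32, 8.29, 7.40 and 7.52 in captive eyestalk. That was 6.62 ± 0.36 log2 units, at least 54.9-fold. Contig[0238] 1241-1276 had 13.80, 13.97, 13.53 and 13.64 in captive ovary, against 7.10, 7.42, 7.20 and 7.21 in captive eyestalk, a difference of 6.50 ± 0.16, at least 32.2-fold, with the smallest adjusted p of the set (4.14e-08, limma). The spread between stages was small for this contig in both tissues.

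Contig[0243] 1009-1043 had 14.49, 15.37, 15.04 and 14.45 in captive ovary and 8.43, 9.08, 8.08 and 7.95 in captive eyestalk. Here 1 of 4 eyestalk arrays exceeded the non-specific level, and the foreground passed 60000 on 3 ovary arrays. With no eyestalk array above the level, Contig[0286] was at least 22.1-fold higher by its probe 545-579 and at least 16.9-fold by 635-669. Contig[0258] 376-411 was at least 17.2-fold higher and Contig[0229] 300-334 at least 16.9-fold. Among the 7 targets with at least 3 member probes, every member probe was called, with differences as low as 1.45 in Contig[0309] 727-761.

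The 4 members that did not pass were Contig[0272] 144-179 at 1.11 ± 0.65 (adjusted p = 0.215), D-E10-5-SMART 175-208 at 1.00 ± 0.52 (adjusted p = 0.165), plateA-E12-5SMART-primer 289-323 at 0.93 ± 0.73 (adjusted p = 0.345) and its probe 643-678 at 0.49 ± 0.37 (adjusted p = 0.318), all by limma. Contig[0272] 144-179 had 13.18, 10.85, 12.96 and 12.70 in captive ovary, against 11.09, 10.12, 12.76 and 11.30 in captive eyestalk. It exceeded the non-specific level on every array of both tissues, and the tissues overlap. The clone plateA-E12-5SMART-primer varied with stage in captive ovary, as described below.

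Of the partner probes on the same strand, all 16 were called higher in captive ovary than in captive eyestalk, and none of the 4 on the opposite strand was (0). As above, some of these probes carry nearly the same bases, so they are not independent. The ovarian peritrophin 1 probe that shares a run with D-F7-5-SMART differed by 6.19 (adjusted p = 5.17e-08, limma) and D-F7-5-SMART 104-137 itself by 6.14. OV-N-S01-0859 243-277 differed by 5.24 (adjusted p = 5.17e-07, limma), beside 5.42 for Contig[0219] 661-695. As a yardstick, 174 of the 345 probes of the ovarian cDNA library (50.4%) were called higher in captive ovary. Across the 81 members, the captive ovary minus eyestalk difference and the wild one had a Pearson r of 0.95, given as a description, since the probes share libraries and scale.

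**Figure D2:**
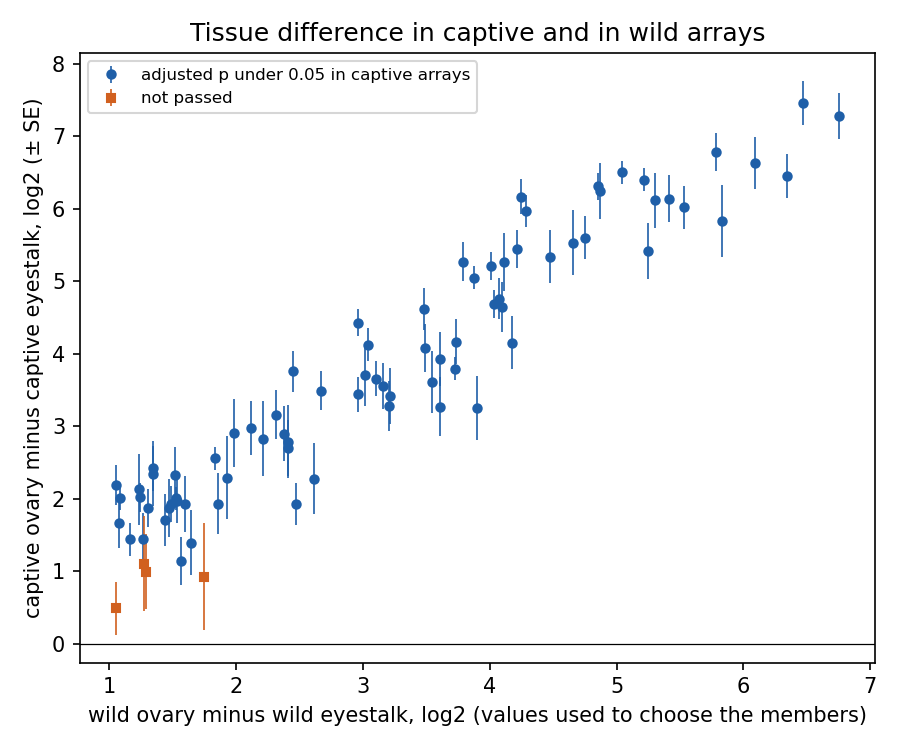
Each point is 1 of the 81 members, with the captive ovary minus eyestalk difference (vertical, with its SE) against the wild ovary minus eyestalk difference that chose the set (horizontal), both in log2 units. All 81 captive differences are above 0, and 77 passed limma's test.

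Within wild ovary, no member passed the test between the vitellogenic and previtellogenic phases (0 of 81), nor did any of the 2240 probes (0% called). At an unadjusted p under 0.05 there were 62 probes (2.77%), 4 of them members. The median member change was -0.08, beside -0.02 over all probes, and changes ran from -0.89 to 0.52. The spread over the 12 wild ovary arrays was modest for most members, with a median SD of 0.442 and a range of 0.201 to 0.776 log2 units.

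Plate-A-G1-5-SMART 71-105 had the smallest p among those with a higher mean. Its lowest, median and highest levels were 11.33, 11.77 and 12.04 in the vitellogenic phase, against 10.68, 11.15 and 11.74 in the previtellogenic phase, or 0.52 ± 0.17, which did not pass (limma's adjusted p = 0.978). Contig[0334] 40-73 had 12.65, 13.82 and 15.12 in the vitellogenic phase, against 14.18, 14.73 and 15.37 in the previtellogenic phase, or -0.89 ± 0.33 with the same adjusted p. The phases overlap for both. Contig[0241] 465-499 at -0.45 ± 0.17 and Contig[0218] 792-825 at -0.68 ± 0.31 did not pass either, nor did D-H1-5-SMART 34-68 at 0.36.

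Single stages showed no call. At 2 h against preablation 0 members passed (42 probes, 1.88%, at an unadjusted p under 0.05, 6 of them members), and at 24 h against preablation 0 passed (4 probes, 0.179%, 1 a member). The cortical rod stages against the vitellogenic stage also gave 0 (46 probes, 2.05%, 3 members), as did the test for any difference among the 6 stages (24 probes, 1.07%, 4 members). All of these are from limma with 2 arrays a stage. D-E10-5-SMART 129-163 was the member with the smallest p at 2 h, at -0.97 ± 0.24, and did not pass (limma's adjusted p = 0.999). Contig[0275] 279-313 shows how 1 array can weigh on a single probe. At 2 h it had 8.05 and 9.74, against 10.56 and 10.00 at preablation, a difference of -1.39 ± 0.49 that did not pass. The first 2 h array had 34.6% of all probes and 76 members above the non-specific level, against 47.6% and 81 on the second. Without the second 2 h array, 6 members were called lower at 2 h, among 35 of all 2240 probes called in either direction, with the lone 2 h array assumed to vary like the other stages. D-F10-5-SMART 57-91 was the member with the smallest p at 24 h, with 11.01 and 11.37 there, against 10.13 and 10.61 at preablation, and did not pass (0.82 ± 0.23). Contig[0272] 144-179 at -0.75 ± 0.22 and D-H1-5-SMART 34-68 at -0.53 ± 0.16 had the smallest p in the rod comparison.

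In captive ovary, 4 of 81 members passed between phases, 2 higher and 2 lower, beside 10.1% of all probes (2.77% higher and 7.37% lower). The members' share, 4.94%, is below the background. The tests rest on 2 arrays a phase that differ in stage as well. The preablation array stood apart in sensitivity, with 30.7% of all probes above the non-specific level. The remaining captive ovary arrays had 44.4% to 46.3%. The sequences of the 4, and of a second Contig[0286] probe, are shown because probes on 1 clone differed.
plateA-E12-5SMART-primer 289-323: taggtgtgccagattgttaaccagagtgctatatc
Plate-A-H1-5-SMART 144-177: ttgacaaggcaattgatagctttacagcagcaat
Plate-A-E2-5-SMART 137-171: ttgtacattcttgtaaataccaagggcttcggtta
Contig[0286] 635-669: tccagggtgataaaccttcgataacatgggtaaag
Contig[0286] 545-579: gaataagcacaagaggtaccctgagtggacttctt

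The clone plateA-E12-5SMART-primer, by its probe 289-323, had 10.68 and 10.94 on the vitellogenic arrays, against 9.61 and 8.41 on the previtellogenic arrays. It was higher by 1.80 ± 0.40 (adjusted p = 0.0135, limma). Its sister probe 643-678 had 8.46 and 8.30, against 7.73 and 6.93, and did not pass.

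Plate-A-H1-5-SMART 144-177 had 8.55 and 8.54 in the vitellogenic phase, against 6.78 and 7.11 in the previtellogenic phase, where no array exceeded the non-specific level. It was higher by 1.60 ± 0.30 (adjusted p = 0.00594, limma), at least 1.66-fold. The sister probe 97-131 had 11.53 and 11.66, against 11.55 and 9.92, so that only the postablation array was low.

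Plate-A-E2-5-SMART 137-171 had 9.90 and 9.79 in the vitellogenic phase, against 10.96 and 10.78 in the previtellogenic phase. It fell by 1.02 ± 0.26 (adjusted p = 0.0251, limma), but the change was 0.15 in the other direction when each array was scaled to its median instead. Contig[0286] 635-669 had 11.95 and 12.18, against 13.66 and 13.44, and fell by 1.49 ± 0.40 (adjusted p = 0.0321, limma). Its sister probe 545-579, on the same contig, had 13.03 and 13.49, against 13.22 and 13.04, and did not separate the phases. The count of 4 changed with any 1 of the captive ovary arrays left out, which left 1 array in a phase.

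Whether the phase change differed by origin was tested directly. It was larger in captive than in wild ovary for 2 members, beside 0.714% of all probes (2.28% in either direction). These were plateA-E12-5SMART-primer 289-323, with a difference of 2.07 ± 0.46 (adjusted p = 0.0285, limma), and Plate-A-H1-5-SMART 144-177, with 1.53 ± 0.35 (adjusted p = 0.0317, limma). For the latter no captive previtellogenic array exceeded the non-specific level, so 1.53 is not a measured size. In wild ovary Plate-A-H1-5-SMART 144-177 had 8.62, 8.84 and 8.97 as lowest, median and highest in the vitellogenic phase, against 8.11, 8.71 and 9.28 in the previtellogenic phase. The wild phases overlap for this clone. For plateA-E12-5SMART-primer 289-323 the wild values were 10.27, 10.45 and 11.04, against 10.43, 10.63 and 11.49. Plate-A-E2-5-SMART 137-171 (-1.07, adjusted p = 0.0683), Contig[0286] 635-669 (-1.41, adjusted p = 0.118) and Contig[0268] 81-115 (1.11, adjusted p = 0.125) did not pass by limma. The count was 0 with each array scaled to one median or with only probes above the non-specific level, and 1 without normexp, with the slide as a block or with quantile normalisation of the fit's arrays only. The count of 2 also changed when any 1 captive ovary array was left out, which left 1 array in a phase. These recounts are of members alone, without the share over all probes.

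**Figure D3:**
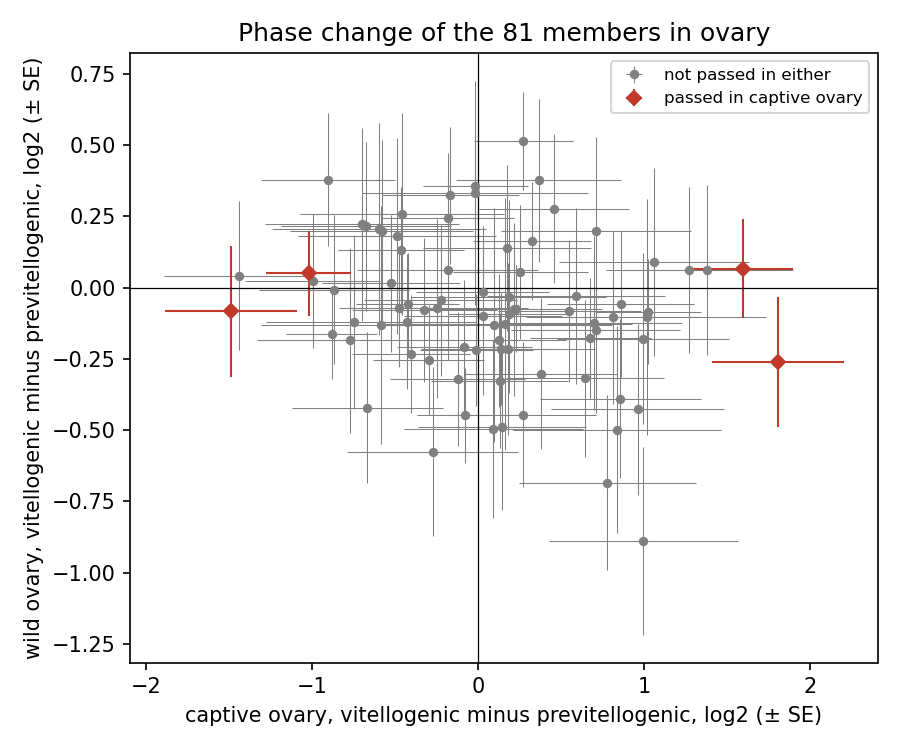
Phase change (vitellogenic minus previtellogenic, log2 units, with SE) of each of the 81 members in captive ovary (horizontal) and in wild ovary (vertical). Wild changes stay between -0.89 and 0.52, and the 4 members called in captive ovary reach 1.80 and -1.49.

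Setting captive against wild ovary is a description, since the wild ovary level chose the members. Origin and slide cannot be told apart in it. In the previtellogenic phase 6 members were called, 3 higher and 3 lower in captive animals, beside 23.2% of all probes (14% higher and 9.15% lower). The higher ones were A-E11-5-SMART 113-147 at 1.09, D-H6-5-SMART 521-555 at 1.02 and D-F7-5-SMART 143-177 at 0.89. When each array was scaled to its median, the first was -0.0623 and the second -0.0092. The lower ones were Plate-A-H1-5-SMART 144-177 at -1.82, plateA-E12-5SMART-primer 289-323 at -1.80 and Contig[0268] 81-115 at -1.17. For Plate-A-H1-5-SMART 144-177 no captive array of this phase exceeded the non-specific level, so -1.82 is not a measured size. Contig[0268] 81-115 had 10.77 and 12.12 in captive previtellogenic ovary, against 12.40, 12.60 and 12.79 as lowest, median and highest in wild. The count of 6 changed without the captive postablation array, which left 1 captive array in the phase. In the vitellogenic phase no member was called (0 of 81, and 0% of the 2240 probes, limma, with 340 probes, 15.2%, and 19 members at an unadjusted p under 0.05). The smallest adjusted p there was 0.119, for Plate-A-E2-5-SMART 137-171 at -0.83.

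In wild cephalothorax, many members were lower once vitellogenesis had begun. In the vitellogenic phase 29 of 81 members, on 21 targets, were lower than in the previtellogenic phase and none was higher (0), by limma at an adjusted p under 0.05. Over all probes 6.07% were called lower and 5.4% higher. Called changes ran from 0.64 to 3.63 log2 units in size. The median change of all 81 was -0.88, beside 0.05 over all probes. The phases did not overlap for 51 members that were lower, beside 12.8% of probes, and for 1 that was higher, A-E9-5-SMART 26-59, beside 15.6%. The median level of the 29 called members was 9.80 at preablation, 9.86 at 2 h, 10.55 at 24 h, 7.80 at the vitellogenic stage, 7.57 at the round rod stage and 7.33 at the elongated rod stage.

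Contig[0218] 412-446 had 10.09, 8.64 and 9.06 on the vitellogenic, round rod and elongated rod arrays, against 13.06, 13.22 and 12.39 on the preablation, 2 h and 24 h arrays. It fell by 3.63 ± 0.42 (adjusted p = 0.00605). D-F7-5-SMART 104-137 had 8.48, 7.48 and 8.21, against 11.85, 11.70 and 11.37, and fell by 3.59 ± 0.29 (adjusted p = 0.003). Both phases are tight for this clone, and its other probe, 143-177, fell too, by 2.82 ± 0.42 (adjusted p = 0.0119). These and the following p-values are limma's.

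Contig[0243] 1009-1043 had 9.10, 9.20 and 8.01, against 11.80, 11.94 and 13.34, and fell by 3.59 ± 0.51 (adjusted p = 0.0106). Contig[0219] 661-695 had 9.36, 8.09 and 8.34, against 12.47, 12.44 and 11.56, and fell by 3.56 ± 0.41 (adjusted p = 0.00605). The clone plateA-H1-5SMART-primer, probe 497-531, had 9.16, 9.31 and 8.51, against 11.90, 12.23 and 13.44, and fell by 3.53 ± 0.44 (adjusted p = 0.0071). In each of these the lowest previtellogenic array lay above the highest vitellogenic array.

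D-H6-5-SMART 521-555 had 7.49, 7.28 and 6.48 in the vitellogenic phase, against 9.65, 10.15 and 10.74 in the previtellogenic phase, and fell by 3.10 ± 0.37 (adjusted p = 0.00675). Contig[0334] 188-221 had 7.87, 7.47 and 7.23, against 10.87, 10.12 and 10.07, and fell by 2.83 ± 0.28 (adjusted p = 0.00486). Contig[0238] 683-717 had 8.73, 7.52 and 7.26, against 10.44, 10.44 and 10.55, and fell by 2.65 ± 0.38 (adjusted p = 0.0108). On the vitellogenic arrays these probes exceeded the non-specific level on 1, 1 and 2 of 3 arrays. Contig[0272] 144-179, which did not separate captive ovary from eyestalk, had 10.08, 8.73 and 9.84, against 12.10, 13.35 and 11.75, and fell by 2.85 ± 0.53 (adjusted p = 0.0219). For 7 of the 29, no vitellogenic array exceeded the non-specific level. Among them Plate-A-G1-5-SMART 71-105 was at least 3.49-fold lower.

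Other clones did not follow. No member probe of Contig[0309] or Plate-A-G11-5-SMART passed, with changes of -0.25 to 0.30 and 0.05 to 0.10. In Contig[0243], 473-507 (-1.61, adjusted p = 0.105) and 649-683 (-1.87, adjusted p = 0.0923) did not pass although 1009-1043 did, and in Contig[0268] 446-480 passed (-1.82, adjusted p = 0.00471) while the other probes did not. The 3 probes of Contig[0338] gave -1.34 and -0.72, which passed, and -1.11, which did not (adjusted p = 0.168). Of the partner probes, OV-N-S01-0859 243-277 fell by 3.17 (adjusted p = 0.00301), whereas ovarian peritrophin 1 830-863 had -2.19 and did not pass (adjusted p = 0.0764). Over the 81 members, the change in cephalothorax and the captive ovary minus eyestalk difference had a Pearson r of -0.75 and a Spearman rho of -0.79, a description over probes of which some share a target.

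**Figure D4:**
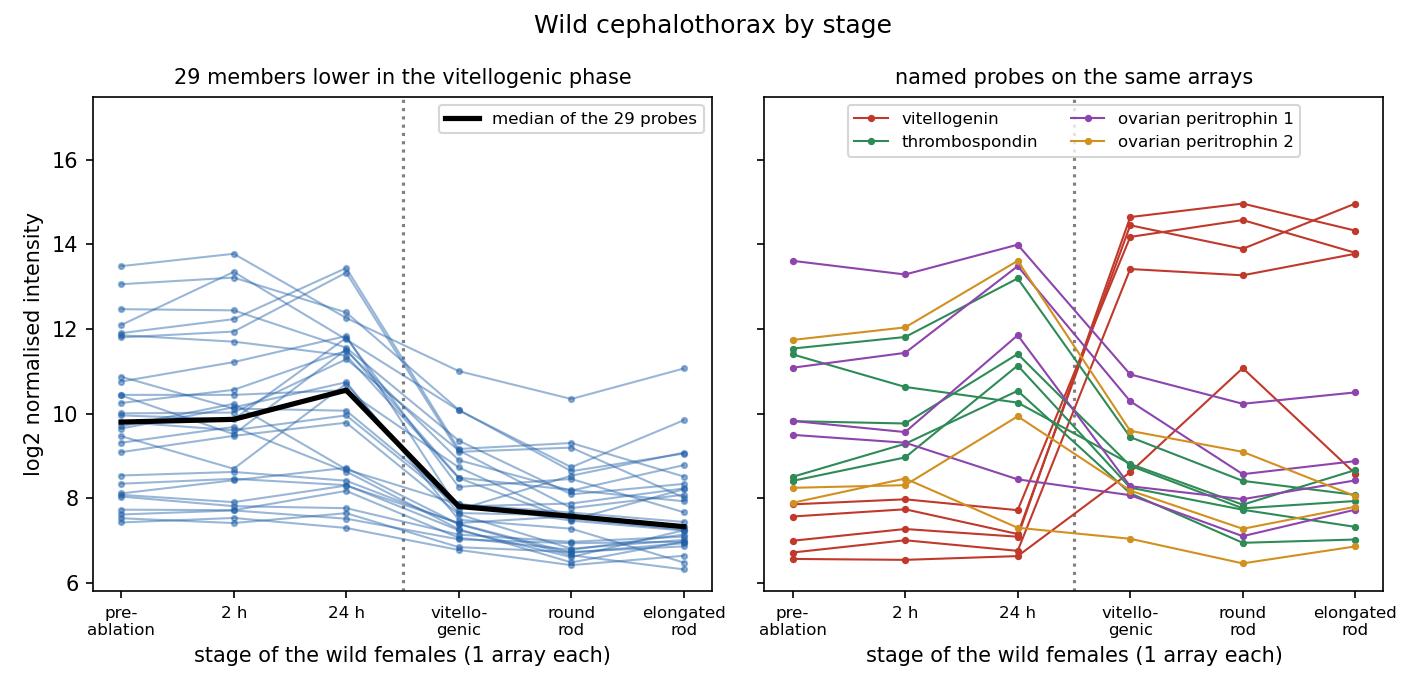
Levels on the 6 cephalothorax arrays by stage, in log2 normalised intensity: the 29 called members with their median (left), and the vitellogenin, thrombospondin and ovarian peritrophin probes (right). The median of the 29 is 9.80 to 10.55 at the previtellogenic stages and 7.33 to 7.80 at the vitellogenic stages.

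Other transcripts moved on the same arrays. The 12 cortical rod probes averaged 7.95 to 8.81 in the vitellogenic phase, against 10.1 to 11.3 in the previtellogenic phase, and 5 of them were called lower and 0 higher, with a median of -2.18. All 5 vitellogenin probes were higher, with a median of 6.67 and means of 13.1 to 13.6, against 7.07 to 7.31. Of 13 muscle probes 2 were higher, of 13 housekeeping probes 3 and of 3 haemocyte transglutaminase probes 1, and none of the 20 protease or 107 eyestalk and neural probes was called (0). The part of these in the members' change was not tested. In bulk samples, fewer cells of a type and less RNA per cell cannot be told apart, and the same holds for how much ovary a cephalothorax sample held.

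Within slide 9 (2 arrays a phase) and within slide 10 (1 array a phase) all 29 were below 0, with medians of -2.03 and -2.38. These 29 were called on the same arrays. On each of these slides the previtellogenic arrays sat at lower array numbers than the vitellogenic ones. Phase and array number on the slide therefore cannot be told apart within a slide. Of all 81 members, 71 and 67 were below 0 on these slides, with medians of -0.91 and -0.75. The share of all probes below 0 within each slide is not given, so these counts have no background beside them. The count of 29 depends on single arrays: it was 16 without the preablation array, 15 without 2 h, 14 without round rod and 13 without elongated rod, all of them lower. These recounts are given without the share over all probes, so they show only that the count moves. Whether cephalothorax differed from ovary in its phase change was tested over the 18 wild arrays of both, a comparison added after seeing the data. For 28 members the change was lower in cephalothorax than in ovary and for 1 it was higher, Contig[0241] 465-499 at 1.08 (adjusted p = 0.0398, limma), beside 6.96% and 7.46% of all probes. The 28 became 15 with each array scaled to one median and 18 without normexp, given without the share over all probes. Wild eyestalk gave no called member (0 of 81, beside 0.625% of all probes, with 4 members and 7.77% of all probes at an unadjusted p under 0.05).

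Array number on the slide, from 1 to 4, moved with the members' levels in wild ovary. It was looked at after seeing the data. In wild ovary, array numbers 1 and 3 held the preablation, 24 h and round rod stages. Array numbers 2 and 4 held the 2 h, vitellogenic and elongated rod stages. Stage was thus partly tied to array number, also with phase in the fit, and the arrays of 1 stage differed in array number. With phase in the fit, 24 of 81 members (29.6%), on 19 targets, differed between array numbers by limma's moderated F, beside 6.74% of all probes. Slide gave 1 member, beside 1.61%. In wild eyestalk, array number gave 0 of all probes (117 at an unadjusted p under 0.05) and slide gave 14 members, beside 15.4%. Contig[0258] 504-539 averaged 14.42, 13.26, 12.75 and 12.98 at array numbers 1 to 4 (adjusted p = 0.00211, limma). Contig[0338] 112-145 averaged 9.97, 11.55, 10.93 and 10.33 (adjusted p = 0.00303), and Contig[0243] 473-507 averaged 11.15, 12.39, 12.28 and 11.54 (adjusted p = 0.00484). The orders differ between probes.

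They can differ within 1 contig. Contig[0286] 545-579 averaged 13.63, 12.62, 12.86 and 13.38 (adjusted p = 0.0321), and 635-669 averaged 12.97, 13.33, 13.06 and 12.29 (adjusted p = 0.0319). The captive ovary arrays sat at 1 array number each, on 1 slide, so stage and array number cannot be told apart there. With array number as a block, 7 members, among 168 of all 2240 probes, were called between captive phases in place of 4. In the vitellogenic phase 5 members, among 64 of all probes, were called between captive and wild ovary in place of 0.

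**Figure D5:**
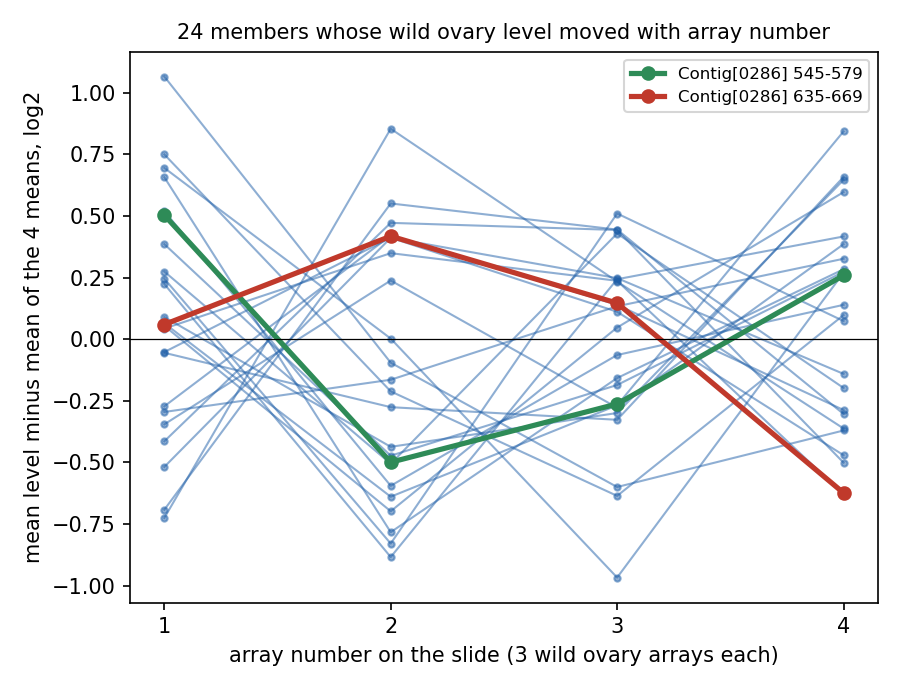
Mean wild ovary level at array numbers 1 to 4 (3 arrays each) minus the mean of the 4 means, in log2 units, for the 24 members called. The members do not share 1 order, and the Contig[0286] probes (thick lines) cross.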

How the data were processed

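Single-colour arrays were hybridised with Cy5-labelled amplified RNA, per the labels' protocols. Per the file headers, the deposited spot values are mean and median foreground intensity on a linear scale, with no background column. The deposited value table held the same intensity, with 85082 values over 2239 probes equal within 0.01. Which image software was used is not given in the sources used here. From the deposited intensity, normexp correction (offset 50), log2 and 1 quantile normalisation of all 38 arrays gave the levels. No filter was applied, so all 81 members entered each fit. Probes were tested with lmFit and eBayes (limma 3.58.1, R 4.3.3), adjusted by Benjamini-Hochberg over all 2240 probes, and called under 0.05. The fits were run on simulated arrays with large changes, independent noise and no slide or array-number effect. That check does not bear on small changes or on such effects. Ovary and eyestalk were fitted with 16 arrays each (origin by phase), stages with the 12 wild ovary arrays, cephalothorax with 6, and captive tissues with 8. The non-specific level was set after seeing the data. Members, gene lists and tests were chosen with earlier results of these data known.

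Members were named in the text by these rules: targets with at least 3 member probes, the 5 with the highest wild ovary mean and the 5 with the largest gap, the 3 nearest on each side of the threshold, and per contrast up to 10 called members by size or, where fewer than 3 passed, those with the smallest p. Sister and partner probes were added after their values were seen. Replicate pairs correlated at 0.72 to 0.94 over the members and none held identical values. Precision is limited by the number of arrays. Alternatives changed the background, the normalisation, the summary of the spot, the filter, the samples, the slide block and the array left out.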

Additional observations from a re-analysis of the deposited data

Results flagged for a closer look

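D-H1-5-SMART 34-68 had 1 array far from the others in wild previtellogenic ovary: the second 2 h array was at 12.20 and the other 5 between 11.50 and 11.75, a gap of 0.639 of the group's range. This was 1 of 43 groups tested, and about 1 in 20 such groups is marked by chance.

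The phase change differed between captive and wild ovary for 2 members by limma's interaction term: plateA-E12-5SMART-primer 289-323 with 2.07 (adjusted p = 0.0285) and Plate-A-H1-5-SMART 144-177 with 1.53 (adjusted p = 0.0317). The 1.53 is not a measured size, since no captive previtellogenic array exceeded the non-specific level for that probe. The count of 2 became 0 with each array scaled to one median or with only probes above the non-specific level, and 1 without normexp, with the slide as a block or with quantile normalisation of the fit's arrays only. In wild cephalothorax, 28 members had a lower phase change than in wild ovary, and this count became 15 with each array scaled to one median and 18 without normexp. The share over all probes is not given for these recounts.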

How the results depend on the processing

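Set size: under the rule, 94 probes were members with normexp, 82 with the foreground median, 102 with each array scaled to one median and 78 with all 38 arrays quantile-normalised, and 81, 81, 81 and 78 of these were shared with the set. For captive ovary, vitellogenic against previtellogenic, the count of 4 became 2 with only probes above the non-specific level, 0 with only the groups compared, 0 with the methods' t-test and 7 with array number as a block, and 0 to 10 with an array left out. For the captive minus wild phase change the count of 2 became 1 with quantile normalisation of the fit's arrays only, 0 with median scaling, 1 without normexp, 0 with the filter and 1 with the slide block, and 0 to 7 with an array left out. For captive against wild ovary, previtellogenic, the 6 became 2 with only the groups compared and 4 to 14 with an array left out, and in the vitellogenic phase the 0 became 5 with array number as a block. At 2 h in wild ovary an array left out gave 0 to 6. In cephalothorax the 29 ranged from 13 to 35 with an array left out (35 without 24 h). The cephalothorax minus ovary contrast gave 15 members with median scaling and 18 without normexp, and 21 to 30 with an array left out. Recounts of calls here are of members alone, without the share over all probes. The causes were not tested.

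Members that reversed under median scaling were Plate-A-E2-5-SMART 137-171 between captive phases (0.15), A-E11-5-SMART 113-147 (-0.0623) and D-H6-5-SMART 521-555 (-0.0092) in captive against wild previtellogenic ovary, D-H1-5-SMART 34-68 (-0.0749) and Contig[0219] 661-695 (-0.36) at 2 h, and Contig[0219] 661-695 at 24 h (-0.13). Contig[0219] 661-695 also reversed with the foreground median at 2 h (-0.0731).

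The replicate block, which used the labels' replicate number in the wild arrays, gave 0 members in each wild ovary and wild eyestalk comparison. Same-numbered samples correlated at -0.33 to 0.65 in ovary (median 0.17) and -0.14 to 0.58 in eyestalk (median 0.37), over 15 pairs each. Not every pair was above 0.1, so the number was not taken as a pairing. Some same-numbered arrays also share a slide.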
